A study of Caenorhabditis elegans with 12 samples.

Results

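The genes described are flp-11 and 7 genes that mark the neuron RIS or the GABA neurons of Caenorhabditis elegans: aptf-1, lim-6, unc-25, unc-47, unc-46, unc-30 and snf-11. They were chosen by symbol, each symbol matched 1 row, and so 8 of the 46934 genes in the count table are covered. All 8 were among the 15908 genes with enough counts to be tested. RNA was sequenced from whole larvae. Eggs freed with hypochlorite had been put into M9 buffer, which holds no food, and 48 h later the hatched larvae, halted at the L1 stage, were taken. The wild type was N2. HBR2340 carries flp-11(syb1445) and PHX2193 carries flp-11(syb2193), and how these alleles alter the gene is not described in the labels. Each strain had 4 biological replicates, A to D, and no other difference between strains, treatment or age is given. Total counts per library lay between 23068345 and 34832403.

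RIS is an interneuron that becomes active when the worm sleeps. It releases GABA and FMRFamide-like peptides of the flp-11 precursor, which quiet the animal. The AP-2 transcription factor APTF-1 is needed for the sleep function of RIS and for flp-11 expression, and the LIM homeodomain factor LIM-6 acts in RIS and several other neurons. GABA is made by the glutamate decarboxylase UNC-25 and loaded into vesicles by the transporter UNC-47, which UNC-46 helps to sort to synapses. SNF-11 is the transporter that takes GABA up again at the plasma membrane. UNC-30 is a homeodomain factor of the D-type motor neurons, the GABA neurons of the nerve cord, and is not a RIS gene. In whole animals each of these genes is thus read from all cells that express it. For the GABA genes these include RIS and many other GABA neurons. In such bulk samples fewer cells of a type and less RNA per cell cannot be told apart.

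The library N2 B stood apart from the other wild-type libraries. In it 27% of the tested genes differed over 2-fold from the average of N2 A, C and D, whereas this share was 6.42% to 11.1% when each of those was compared in turn with the remaining wild-type libraries. Its scaling factor was 0.717, against 0.945 to 1.18 in the other libraries. For the 8 genes and the counts of related gene lists, values without N2 B are given where a call changes. Body wall muscle markers set HBR2340 apart from both other strains. Of 7 markers, 6 were called higher in HBR2340 than in N2, where 3.34% of all tested genes were higher. All 7 were lower in PHX2193 than in HBR2340, where 9.39% were lower. In PHX2193 against N2 edgeR called 0 and DESeq2 2 of them, and 5 had an unadjusted p under 0.05. The HBR2340 calls of the myosin genes myo-3 and unc-54 ended without any 1 of 8 and 9 of the 12 libraries, and that of the troponin gene unc-27 without HBR2340 D (edgeR adjusted p up to 0.0992, 0.117 and 0.0505). Without N2 B all 7 were higher in HBR2340 than in N2, where 17.7% of all tested genes were called. Then 1, the troponin gene tnt-2, was lower in PHX2193 than in N2, where 1.4% were called. The summed level of the 7 markers, in CPM (counts scaled to library size), was 7573 to 13874 for N2 libraries, 18018 to 19448 for HBR2340 and 4427 to 8057 for PHX2193. None of the 7 was at 0 in any library. For 15 pan-neuronal genes the sum was 1937 to 2578 CPM for N2, 2396 to 2965 for HBR2340 and 1939 to 2471 for PHX2193, ranges that overlap. The part that tissue make-up has in the results below was not tested.

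**Figure D1:**
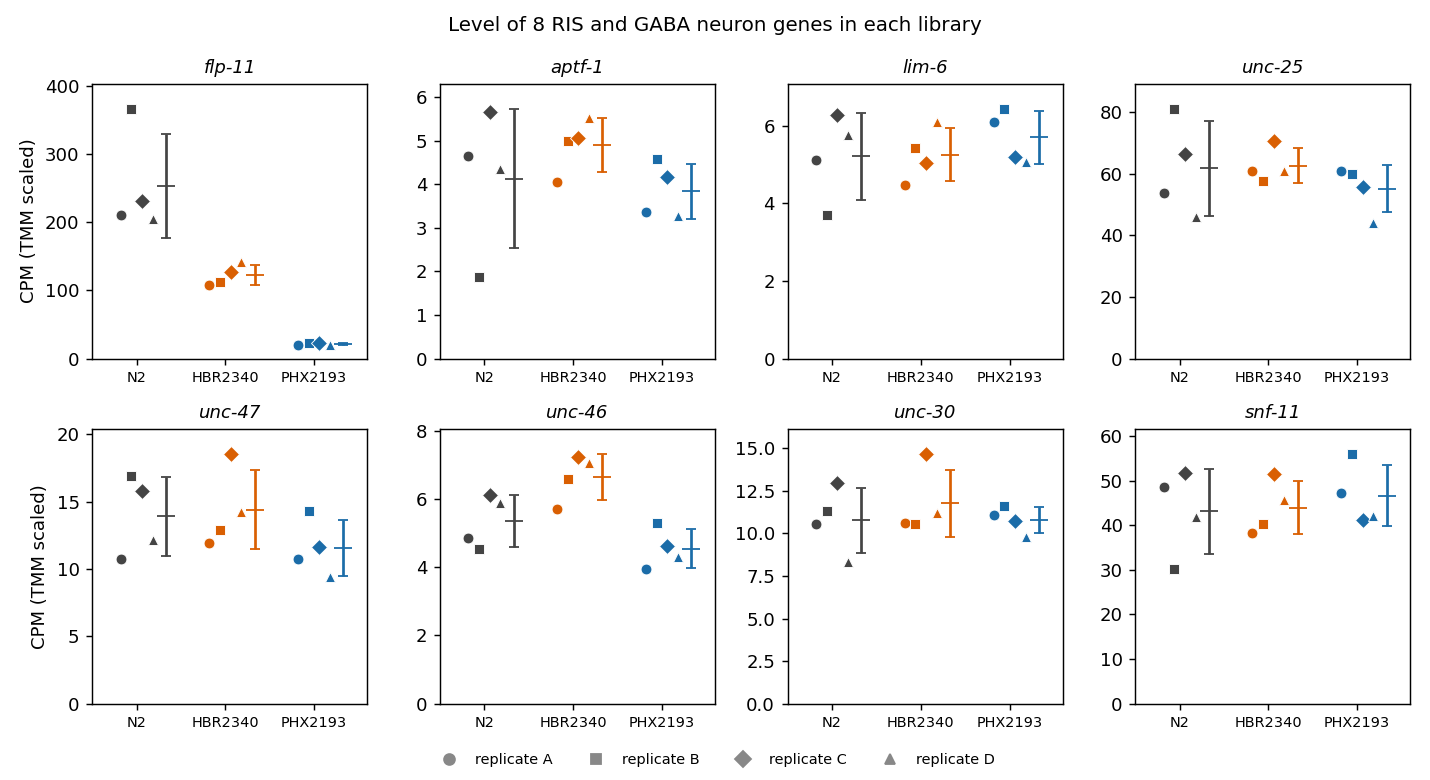
Level of each of the 8 genes in each library, in CPM with TMM scaling, by strain. Points are libraries with 1 marker shape per replicate letter, and the bar beside them is mean ± SD of 4 libraries. Only flp-11 falls into 3 separate ranges, with HBR2340 at 108 to 142 CPM and PHX2193 at 19.3 to 23.2 CPM.

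The gene of the sleep peptides, flp-11, was lower in both mutant strains, and far lower in PHX2193 than in HBR2340. It lies on the minus strand of chromosome X between 4677334 and 4678129 (WBcel235) as WBGene00001454. Its raw counts were 4849, 6473, 8433 and 5986 in N2 A to D. They were 3107, 2896, 3630 and 3503 in HBR2340 and 458, 770, 600 and 664 in PHX2193. The 3 ranges do not overlap, and the lowest count, in PHX2193 A, was still 458. After scaling, the levels were 211, 367, 231 and 206 CPM in N2, with a mean of 254 ± 76.6 (SD, n = 4). The mean was 123 ± 15.4 CPM in HBR2340, whose libraries had 108, 113, 128 and 142, and 21.1 ± 1.88 CPM in PHX2193, whose libraries had 19.3, 23.2, 22.1 and 19.7. The spread in N2 came mostly from N2 B, the highest library, and no mutant library reached any N2 library. The counted level in PHX2193 was 0.0831 of that in N2 (95% interval 0.0620 to 0.112), and in HBR2340 it was 0.484 (0.370 to 0.633). The level in PHX2193 was 0.172 of that in HBR2340 (0.130 to 0.228). On the log2 scale these changes were −3.59 ± 0.20, −1.05 ± 0.18 and −2.54 ± 0.19 (SE). All 3 passed edgeR's quasi-likelihood test across all genes (Benjamini-Hochberg adjusted p = 1.28e-06, 0.00368 and 4.92e-06 in that order). Without N2 B both changes from N2 were −3.36 ± 0.11 and −0.83 ± 0.10. Both strains carry alleles of flp-11 itself, and whether altered sequence at the gene changes how many reads are counted was not tested.

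Among the genes that differ, flp-11 held a different place in each strain. In PHX2193 against N2 it had the second smallest adjusted p of all tested genes (rank 2) and the fall ranked 3 of 32 called lower genes. In HBR2340 against N2 it ranked 259 by adjusted p, and its fall ranked 299 of 641. Within the FMRFamide-like family its level per kilobase of exon (FPKM) ranked 7 of 30 tested flp genes in N2, 17 in HBR2340 and 28 in PHX2193. Single libraries gave ranks of 5 to 9 in N2, 14 to 17 in HBR2340 and 28 in each PHX2193 library.

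Among the other genes of RIS and GABA neuron identity only unc-46 was called, and only between PHX2193 and HBR2340. Of the 8 genes, 1 was called in HBR2340 against N2 (flp-11, lower), where 7.37% of all tested genes were called, 3.34% higher and 4.03% lower. In PHX2193 against N2 it was again flp-11 alone, where 0.365% were called, 0.163% higher and 0.201% lower. Between PHX2193 and HBR2340 flp-11 and unc-46 were called, both lower in PHX2193, where 19.5% of all tested genes were called, 10.1% higher and 9.39% lower. Against N2 none of the 7 genes besides flp-11 was called by edgeR's quasi-likelihood test in either strain. None reached an unadjusted p under 0.05, and none was called by DESeq2 or limma-voom. Without N2 B the same genes of the 8 were called, while the share of all tested genes called rose to 17.7%, 1.4% and 32.9% in the 3 comparisons. The median log2 fold change of the 8 genes was 0.040 in HBR2340 against N2, −0.14 in PHX2193 against N2 and −0.25 between PHX2193 and HBR2340. Over all tested genes these medians were −0.042, −0.011 and 0.016.

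**Figure D2:**
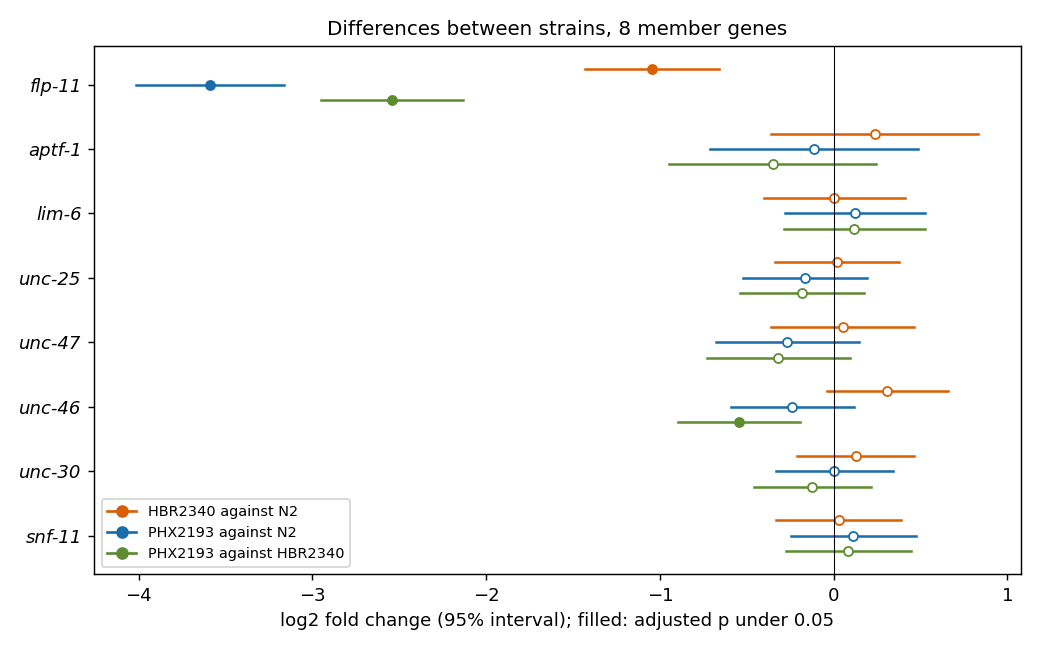
Log2 fold change of the 8 genes in the 3 comparisons. Lines are 95% intervals from the model and filled points have an adjusted p under 0.05. The 3 intervals of flp-11 lie below 0, that of unc-46 does so between PHX2193 and HBR2340, and the others cover 0.

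The factor gene aptf-1 (WBGene00019424; chromosome II, 6454971 to 6456546, plus strand) was expressed at a low level in every strain. It had 4.65, 1.87, 5.65 and 4.36 CPM in N2 A to D, 4.04, 4.99, 5.07 and 5.52 in HBR2340 and 3.37, 4.57, 4.17 and 3.27 in PHX2193. The ranges overlap, and N2 B was the lowest library of all. The log2 fold change was 0.24 ± 0.28 (SE, n = 4 per strain) in HBR2340 against N2 and −0.11 ± 0.28 in PHX2193 against N2. These intervals allow 0.780 to 1.78 times and 0.611 to 1.4 times the N2 level, so a fall as large as that of flp-11 in either strain lies outside them. At its end aptf-1 shares 35 bases of exon with dgk-5 on the opposite strand, which was not called in any comparison.

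lim-6 (WBGene00002988; chromosome X, 1072452 to 1079452, plus strand) had 5.12, 3.69, 6.28 and 5.77 CPM in N2, 4.46, 5.42, 5.03 and 6.09 in HBR2340 and 6.10, 6.44, 5.20 and 5.05 in PHX2193. The 3 strains overlap, and N2 B was again the lowest. The log2 fold change against N2 was 0.0037 ± 0.19 in HBR2340 and 0.12 ± 0.19 in PHX2193, with intervals of 0.757 to 1.33 times and 0.822 to 1.44 times the N2 level. The profilin gene pfn-3 shares 23 bases of exon with lim-6 on the opposite strand and was lower in PHX2193 than in HBR2340 (−0.88 ± 0.16, edgeR adjusted p = 0.00225), while lim-6 was at 0.12 ± 0.19 there.

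The decarboxylase gene unc-25 (WBGene00006762; chromosome III, 12942651 to 12949883, plus strand) had 53.8, 81.1, 66.2 and 45.8 CPM in N2, 60.9, 57.6, 70.7 and 60.7 in HBR2340 and 60.8, 59.9, 55.6 and 44.1 in PHX2193. Its 3 ranges overlap, with N2 B the highest library. The log2 fold change from N2 to HBR2340 was 0.018 ± 0.16, and to PHX2193 it was −0.16 ± 0.16. The intervals run from 0.791 to 1.30 times and from 0.697 to 1.14 times the N2 level.

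The vesicular GABA transporter gene unc-47 (WBGene00006783; chromosome III, 10183762 to 10186260, minus strand) had 10.8, 16.9, 15.8 and 12.1 CPM in N2, 11.9, 12.9, 18.5 and 14.2 in HBR2340 and 10.7, 14.3, 11.7 and 9.42 in PHX2193. The strains overlap. The log2 fold change was 0.051 ± 0.19 in HBR2340 against N2, −0.27 ± 0.19 in PHX2193 against N2 and −0.32 ± 0.19 between PHX2193 and HBR2340 (edgeR adjusted p = 0.912, 0.644 and 0.283).

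Its sorting factor gene unc-46 (WBGene00006782; chromosome V, 5097075 to 5099025, minus strand) was the one of the 8 genes besides flp-11 that was called in any comparison. It had 4.86, 4.54, 6.11 and 5.87 CPM in N2, 5.71, 6.59, 7.22 and 7.06 in HBR2340 and 3.95, 5.30, 4.61 and 4.31 in PHX2193. Every PHX2193 library lay below every HBR2340 library, and N2 overlapped both. The level in PHX2193 was 0.684 of that in HBR2340 (95% interval 0.537 to 0.873), a log2 fold change of −0.55 ± 0.16 (4 libraries each, Benjamini-Hochberg adjusted p = 0.0314 by edgeR). Against N2 the log2 fold change was 0.31 ± 0.16 in HBR2340 (adjusted p = 0.304, edgeR) and −0.24 ± 0.16 in PHX2193 (adjusted p = 0.627, edgeR), neither of which passed. The call between both strains was kept in 13 of 23 other settings. It ended without HBR2340 B, C or D or PHX2193 A, C or D (edgeR adjusted p of 0.0759 to 0.0974), with upper quartile scaling (0.0691), without the count filter (0.129), without a scaling factor (0.292) and with scaling to pan-neuronal genes (0.287, log2 fold change −0.36). The gene shares 51 bases of exon with C04F5.2 on the same strand, which had 271 counts over all 12 libraries.

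The motor neuron factor gene unc-30 (WBGene00006766; chromosome IV, 13118977 to 13124406, plus strand) had 10.6, 11.3, 12.9 and 8.35 CPM in N2, 10.6, 10.6, 14.7 and 11.2 in HBR2340 and 11.1, 11.6, 10.7 and 9.81 in PHX2193. All ranges overlap. It gave log2 fold changes of 0.13 ± 0.16 in HBR2340 and 0.0027 ± 0.16 in PHX2193 against N2, with intervals of 0.864 to 1.38 times and 0.793 to 1.27 times the N2 level.

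The GABA uptake transporter gene snf-11 (WBGene00004910; chromosome V, 11305070 to 11308446, minus strand) had 48.5, 30.1, 51.8 and 41.9 CPM in N2, 38.3, 40.3, 51.6 and 45.7 in HBR2340 and 47.2, 56.0, 41.2 and 42.1 in PHX2193. The strains overlap, with N2 B the lowest library. The log2 fold change from N2 to HBR2340 was 0.028 ± 0.17, and to PHX2193 it was 0.11 ± 0.17, with intervals of 0.795 to 1.31 times and 0.843 to 1.39 times the N2 level.

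The unusual wild-type library did not shift the 8 genes in 1 direction. On the log2 CPM scale N2 B lay above the mean of the other N2 libraries by 0.77 for flp-11, 0.57 for unc-25, 0.41 for unc-47 and 0.11 for unc-30. It lay below that mean for aptf-1 (−1.34), snf-11 (−0.65), lim-6 (−0.62) and unc-46 (−0.30), and the median of all tested genes was −0.12. Without N2 B the log2 fold change of aptf-1 in HBR2340 against N2 was −0.011 and no longer 0.24, and that of flp-11 was −0.83 in place of −1.05.

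**Figure D3:**
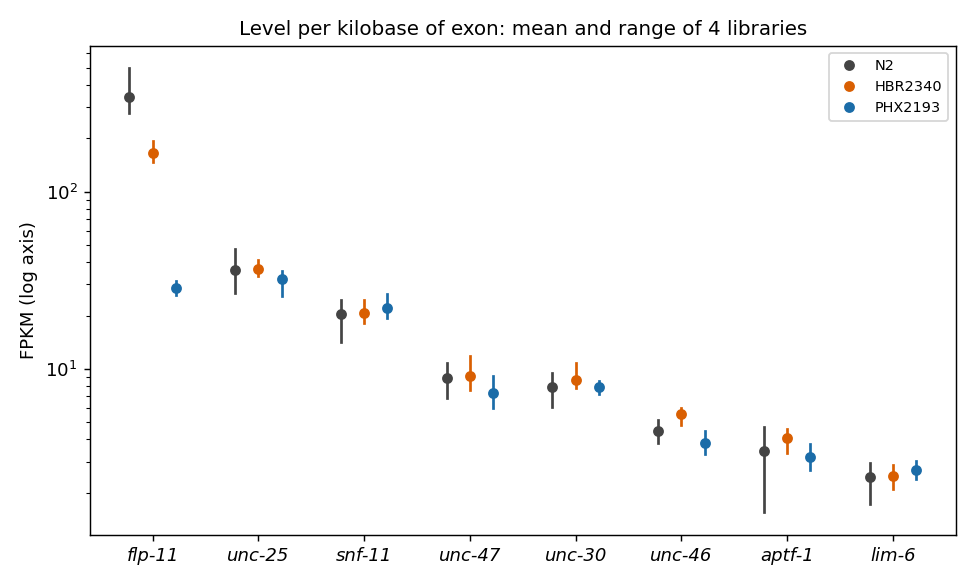
Level of the 8 genes per kilobase of merged exon (FPKM, log axis) in each strain. Points are means and lines the range of 4 libraries. In N2 the mean of flp-11 is 139 times that of lim-6, while in PHX2193 its range of 26.0 to 31.3 FPKM overlaps those of unc-25 and snf-11.

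Compared per kilobase of exon, the 8 genes had a steep order in N2, with flp-11 at the top and the factor genes aptf-1 and lim-6 at the bottom. The mean was 342 ± 103 FPKM (SD, n = 4) for flp-11, 36 ± 8.96 for unc-25 and 20.3 ± 4.51 for snf-11. Ranges of neighbours in this upper order did not overlap. Below them stood unc-47 (8.85 ± 1.86) and unc-30 (7.93 ± 1.4), which overlapped each other, and then unc-46 (4.49 ± 0.641), aptf-1 (3.42 ± 1.33) and lim-6 (2.46 ± 0.530), of which each overlapped the next. In N2 97.9% of the tested genes had a lower FPKM than flp-11, and 28.1% had a lower one than lim-6. HBR2340 had the same order, with flp-11 at 166 ± 20.7 FPKM and only unc-47 and unc-30 overlapping. In PHX2193 unc-25 came first (32.1 ± 4.47 FPKM), ahead of flp-11 (28.4 ± 2.53) and snf-11 (22 ± 3.20), and both neighbouring pairs overlapped. There 78.6% of tested genes were below flp-11. FPKM rests on the annotated exon length, which for flp-11 in the mutant strains is that of the wild-type gene.

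The level of flp-11 relative to another gene of the same library does not depend on how libraries are scaled. The ratio of flp-11 to unc-25 FPKM was 9.06, 10.5, 8.09 and 10.4 in N2 A to D, 4.12, 4.54, 4.19 and 5.42 in HBR2340 and 0.734, 0.896, 0.923 and 1.04 in PHX2193. In this ratio N2 B was like the other N2 libraries, and the 3 strains do not overlap. The mean log2 ratio differed from that of N2 by −1.06 in HBR2340 and −3.41 in PHX2193, and by −2.35 between PHX2193 and HBR2340. Each difference had an exact two-sided permutation p of 0.0286 (n = 4 per strain), the smallest that 4 against 4 libraries can give, and the same value after Benjamini-Hochberg adjustment over 6 tests. The ratio of flp-11 to its regulator gene aptf-1 was 73.8, 319.5, 66.7 and 76.8 in N2, 43.6, 36.9, 41.1 and 42 in HBR2340 and 9.33, 8.25, 8.65 and 9.83 in PHX2193. Here N2 B stood far above all others. The mean log2 difference from N2 was −1.36 in HBR2340 and −3.54 in PHX2193, with the same exact permutation p of 0.0286 (n = 4 per strain). Without N2 B these were −0.83 and −3.01. Both ratios were chosen after the values were seen.

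Genes of GABA breakdown and reception showed no difference from N2 that passed the test. Of 11 such genes, none was called in either strain against N2 (edgeR; 1 and 2 at unadjusted p under 0.05 in HBR2340 and PHX2193; none by DESeq2 or limma-voom). Against N2 the 11 genes had a median log2 fold change of 0.20 in HBR2340 and −0.052 in PHX2193. Between both mutants it was −0.11. DESeq2 called 4 and limma-voom 2 of the 11 genes between PHX2193 and HBR2340. By edgeR 1 was higher and 2 were lower there, where 10.1% of all tested genes were higher and 9.39% lower. Without N2 B 4 were lower, as the succinate semialdehyde dehydrogenase gene alh-7 (−0.22 ± 0.080, edgeR adjusted p = 0.0489) and the channel gene lgc-35 (−0.57 ± 0.15, edgeR adjusted p = 0.0116) also passed. Of all tested genes 32.9% were called between PHX2193 and HBR2340 without N2 B, against 19.5% with all libraries. The GABA transaminase gene gta-1, which breaks GABA down, had 395, 726, 510 and 443 CPM in N2, 573, 645, 542 and 627 in HBR2340 and 466, 375, 299 and 371 in PHX2193. All PHX2193 libraries were below all HBR2340 libraries (log2 fold change −0.66 ± 0.19, edgeR adjusted p = 0.0257). The gene unc-49 encodes the GABA-A receptor of body muscle. It had 95.5, 56.0, 99.7 and 71.9 CPM in N2, 75.3, 70.1, 85.6 and 72.4 in HBR2340 and 112, 116, 108 and 92.3 in PHX2193. It was higher in PHX2193 than in HBR2340 (0.50 ± 0.16, edgeR adjusted p = 0.0499), where the 7 muscle markers were lower. The ligand-gated channel family gene lgc-36 was lower (−1.20 ± 0.37, edgeR adjusted p = 0.0386) at only 0.515 ± 0.154 CPM in PHX2193 and 1.19 ± 0.318 in HBR2340. The calls of gta-1 and unc-49 each ended without any 1 of 6 of the 12 libraries, and that of lgc-36 without any 1 of 7 (edgeR adjusted p up to 0.0883, 0.125 and 0.123).

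**Figure D4:**
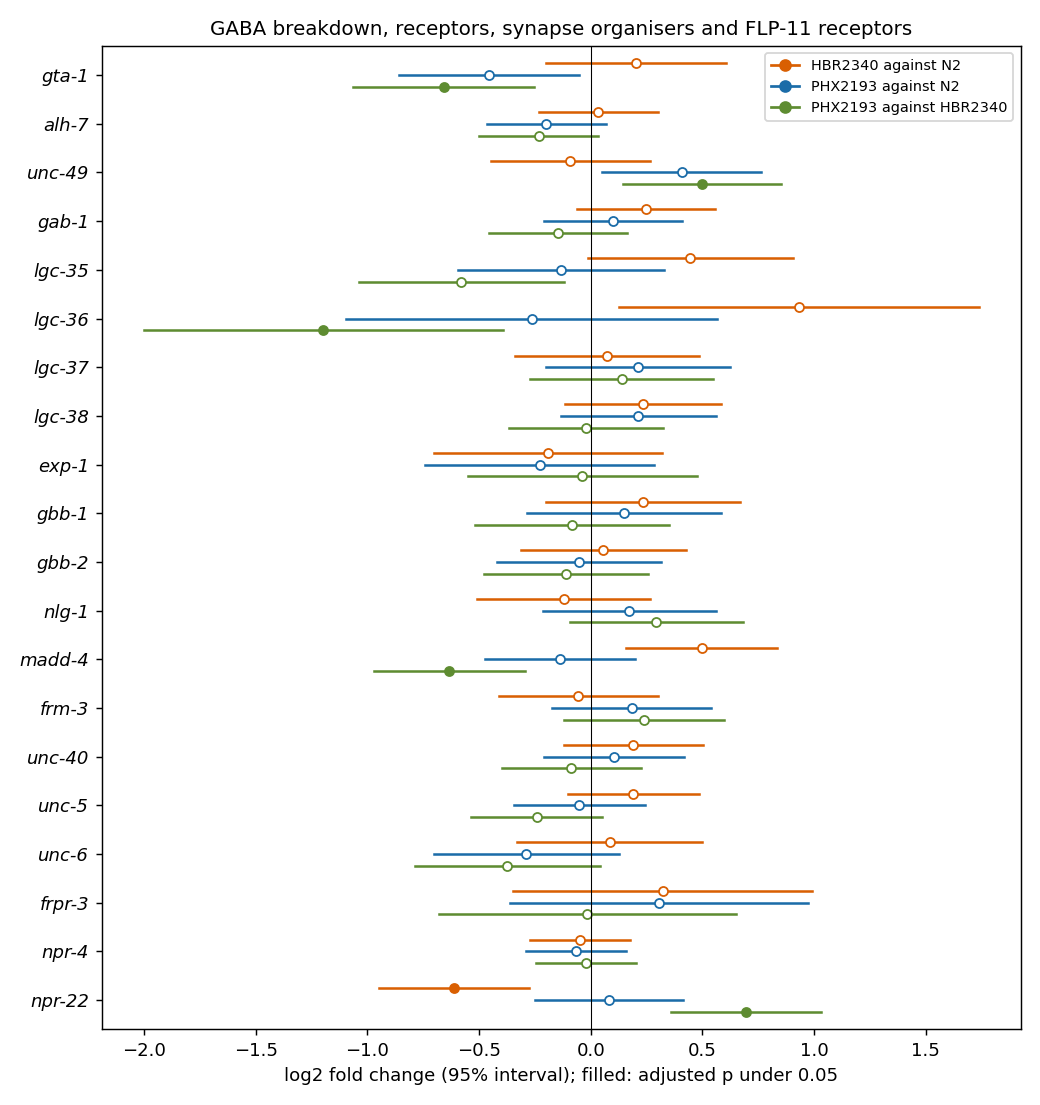
Log2 fold change with 95% interval for 11 genes of GABA breakdown and reception, 6 genes of inhibitory synapse assembly and axon guidance and 3 candidate receptor genes of FLP-11 peptides. Filled points have an adjusted p under 0.05. Against N2 npr-22 in HBR2340 is the one filled point.

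Of 6 genes that organise inhibitory synapses or guide GABA axons, none was called against N2 by edgeR. In HBR2340 1 had an unadjusted p under 0.05 and was called by DESeq2, and none was called by limma-voom. In PHX2193 the count was 0 by each of these measures. Between PHX2193 and HBR2340 edgeR called 1 of the 6, lower, where 9.39% of all tested genes were lower. The gene madd-4, a secreted organiser of neuromuscular synapses, was lower in PHX2193 (50.4 ± 7.42 CPM) than in HBR2340 (78.1 ± 13 CPM; change −0.63 ± 0.16 on the log2 scale, edgeR adjusted p = 0.0127). Leaving out any single library of the 12 did not end that call. The medians of the 6 genes were 0.14, 0.027 and −0.16 in the 3 comparisons.

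Of 13 regulators and markers of GABA neuron fate, edgeR called none in PHX2193 against N2, where 0.365% of all tested genes were called. DESeq2, limma-voom and an unadjusted p under 0.05 also gave 0 there. In HBR2340 against N2 edgeR called 1 of the 13, where 7.37% of all tested genes were called. The call was ttr-39, a transthyretin-like gene of the D-type motor neurons (WBGene00007304; chromosome IV, 10088367 to 10089877). Its level was 21.7, 27.7, 25.7 and 22.5 CPM in N2, 65.4, 63.2, 103 and 76.4 in HBR2340 and 23.2, 21.9, 23.5 and 20.8 in PHX2193. HBR2340 lay above both other strains in every library, and N2 and PHX2193 overlapped. It was higher by a log2 fold change of 1.66 ± 0.15 in HBR2340 than in N2 (edgeR adjusted p = 7.68e-05), and lower in PHX2193 than in HBR2340 (−1.78 ± 0.15, edgeR adjusted p = 1.14e-05). Leaving out any 1 library kept both calls. The muscle markers were also higher in HBR2340 and lower in PHX2193 than in HBR2340, and their part in the ttr-39 values was not tested. The D-type factor gene unc-30 and the GABA genes unc-25 and unc-47 were not called in HBR2340 against N2, with values given above. Between PHX2193 and HBR2340 edgeR called 1 of the 13 higher and 1 lower. Of all tested genes 10.1% were higher and 9.39% lower there. The Iroquois homeobox gene irx-1 was higher in PHX2193 (52.7 ± 2.73 CPM) than in HBR2340 (35.1 ± 1.69 CPM; 0.58 ± 0.13, edgeR adjusted p = 0.00675), and without N2 B it was also lower in HBR2340 than in N2 (−0.44 ± 0.088, edgeR adjusted p = 0.00457). The 3 AP-2 family genes besides aptf-1 were not called in any comparison (edgeR, DESeq2, limma-voom and an unadjusted p under 0.05 each gave 0). Without N2 B ceh-10 was also higher in PHX2193 than in HBR2340. In that fit 17.7% of all tested genes were called in HBR2340 against N2 and 32.9% between PHX2193 and HBR2340. Over the 13 regulators and markers the median was 0.078, 0.15 and 0.096 in the 3 comparisons.

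Of 3 genes whose products respond to FLP-11 peptides in cell assays, npr-22 differed. It had 23.1, 13.2, 20.8 and 18.1 CPM in N2, 12.0, 11.9, 13.6 and 11.9 in HBR2340 and 22.3, 20.5, 19.7 and 17.4 in PHX2193. N2 B fell among the HBR2340 values and the other N2 libraries lay above them. The log2 fold change in HBR2340 against N2 was −0.61 ± 0.15 (edgeR adjusted p = 0.0317, 4 libraries each), and PHX2193 was higher than HBR2340 (0.70 ± 0.15, edgeR adjusted p = 0.00719). Of all tested genes 4.03% were lower in the first of these comparisons and 10.1% higher in the other. The call against N2 ended without any 1 of N2 A or C, HBR2340 A, B or D or PHX2193 B (edgeR adjusted p up to 0.0756) and was −0.76 ± 0.11 without N2 B (adjusted p = 0.000585, edgeR). The gene npr-4 had 16.6 ± 1.21, 16.1 ± 0.930 and 15.9 ± 1.4 CPM in N2, HBR2340 and PHX2193, and frpr-3 had 3.74 ± 1.72, 4.72 ± 0.593 and 4.67 ± 0.353. Neither passed in any comparison. No gene of 9 that process and release peptides was called in any comparison by edgeR, DESeq2 or limma-voom, with 1 at unadjusted p under 0.05 in each. Without N2 B 2 of the 9 passed, unc-31, a factor of dense-core vesicle release, and the convertase gene kpc-1. In HBR2340 against N2 they were higher by 0.62 ± 0.19 and 0.30 ± 0.083 on the log2 scale (edgeR adjusted p = 0.0402 and 0.0253), and in PHX2193 against HBR2340 both were lower (edgeR adjusted p = 0.0446 and 0.0215). Without N2 B 17.7% and 32.9% of all tested genes were called in these comparisons, in that order. The amidating enzyme gene pamn-1 had 399.6 CPM in N2 B, 3.66 above the mean of N2 A, C and D on the log2 CPM scale. Its lowest N2 library had 29.7 CPM, while HBR2340 libraries had 34.1 to 35.1 and PHX2193 libraries 29.8 to 44.7 CPM. Without N2 B it was not called against N2, with log2 fold changes of 0.12 ± 0.12 in HBR2340 and 0.16 ± 0.12 in PHX2193. The convertase gene egl-3, for example, had 2032 ± 481 CPM in N2 and 2005 ± 345 in PHX2193.

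Genes beside flp-11 on chromosome X did not share its fall in PHX2193. Of the 10 tested genes nearest to it, 5 on either side, none was called in PHX2193 against N2 (edgeR; 1 had an unadjusted p under 0.05; DESeq2 and limma-voom called 0), and the median log2 fold change was 0.060. In HBR2340 against N2 all 10 values were below 0, with a median of −0.48, where 55.4% of all tested genes were below 0. Of these 10, 1 passed the test by edgeR, where 7.37% of all tested genes did, 5 had an unadjusted p under 0.05, and DESeq2 called 4 and limma-voom 1. The one called by edgeR was the homeobox gene ceh-1 (1.79 ± 0.469 CPM in N2, 0.818 ± 0.242 in HBR2340; log2 fold change −1.12 ± 0.28, edgeR adjusted p = 0.0320). Between PHX2193 and HBR2340 4 of the 10 were higher in PHX2193, where 10.1% of all tested genes were higher. They were ceh-1, the nuclear receptor gene nhr-45, the aquaporin gene aqp-8 (1.28 ± 0.19, edgeR adjusted p = 0.00051) and dhhc-10. The next gene downstream, tmem-135, lies on the other strand and shares 17 bases of exon with flp-11. Its level was 10.3 ± 3.17 CPM in N2, where flp-11 was at 254, with 6.79 ± 0.952 in HBR2340 and 8.57 ± 1.26 in PHX2193, and it was not called in any comparison. It had 2788 counts over all 12 libraries, and at most 349 in 1 library, fewer than the 458 of flp-11 in its lowest library. Whether strand was used in counting is not stated in the labels, so reads in bases shared by both genes cannot be told apart.

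**Figure D5:**
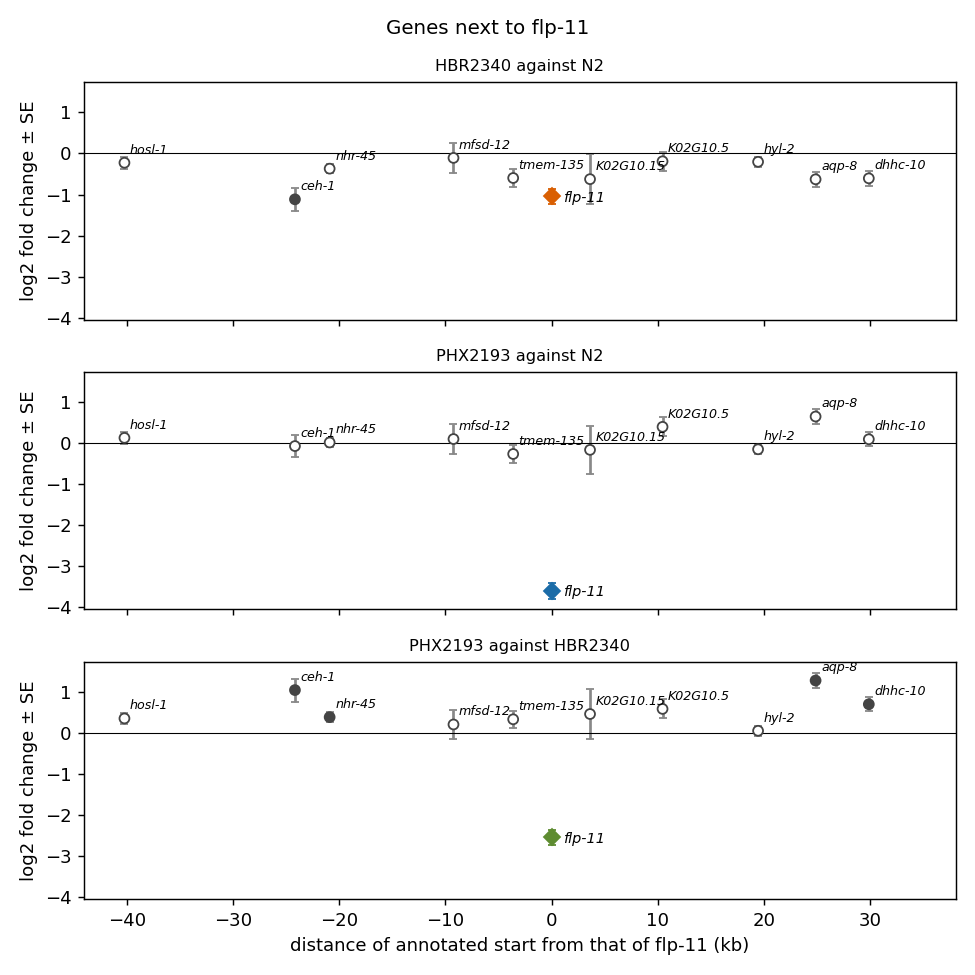
Log2 fold change ± SE of the 10 tested genes nearest to flp-11 against the distance between lowest annotated positions, in kilobases, in each comparison. The diamond is flp-11, and filled circles have an adjusted p under 0.05. In PHX2193 against N2 flp-11 stands at −3.59 with no filled circle around it.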

How the data were processed

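The deposited values are raw counts per WormBase gene, whole numbers made by the authors and not normalised. Reads were aligned with Bowtie 0.12.2, per the submitters' processing notes, which name WBcel235 and also mm8. No source used here gives the counting program, annotation release, strandedness or treatment of reads with several matches, which decide how shared exons are counted. Symbols, positions and merged exon lengths came from the Ensembl release 115 annotation of WBcel235, which holds 46924 of 46934 identifiers. All 8 symbols matched. No sequences are printed.

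In R 4.3.3, edgeR 4.0.16 removed genes with few counts (filterByExpr, minimum count 10, minimum total 15; 15908 kept), scaled libraries with TMM and fitted all 12 libraries with 1 term per strain (robust quasi-likelihood, 9 residual degrees of freedom). Tests are two-sided, with Benjamini-Hochberg adjustment over all genes tested and calls under 0.05. SE is the log2 fold change divided by the square root of F, and 95% intervals use it. FPKM is scaled CPM per kilobase of exon. No 2 libraries were copies: the lowest chi-square per degree of freedom among same-strain pairs was 15.2. At 3 counts a library reads 0.0823 to 0.170 CPM, counting error only. On simulated data for HBR2340 against N2 (15908 genes), 47% of 2-fold changes (log2 fold 1) and 100% of 4-fold changes (log2 fold 2) were called. The members and the 14 other gene lists were chosen with earlier results of these data known. From each list the called genes with the smallest adjusted p, up to 6, could be named, with the 5 tested genes on each side of flp-11 and the 5 genes most alike to flp-11, aptf-1 and unc-25 in log2 CPM (mean at least 1, prior count 2). Uncalled genes given as examples (npr-4, frpr-3, egl-3, pamn-1) and genes called only without N2 B were named after their values were seen. Ratios were tested with SciPy 1.17.1. Other settings were DESeq2 1.42.0, voom of limma 3.58.1, other scalings and filters, fewer libraries and a replicate block.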

Additional observations from a re-analysis of the deposited data

Results flagged for a closer look

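In 3 of 30 sets of 4 libraries tested for a library apart (24 gene levels and 6 ratio sets), the highest library was farther from the rest than Dixon's 95% limit allows, which chance passes in about 1 of 20 sets. The flp-11 level in N2 B was 367 CPM, against 206 to 231 CPM in the other N2 libraries. The ratio of flp-11 to aptf-1 in N2 B was 319.5, against 66.7 to 76.8 in the other N2 libraries. The unc-30 level in HBR2340 C was 14.7 CPM, against 10.6 to 11.2 CPM in the other HBR2340 libraries.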

How the results depend on the processing

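The flp-11 calls held in all 23 other settings, with log2 fold changes of −1.15 to −0.83 (HBR2340 against N2), −3.68 to −3.36 (PHX2193 against N2) and −2.59 to −2.36 (PHX2193 against HBR2340). None of the other 7 genes gained a call in 460 fits outside the unc-46 call described above. A change of sign was seen in 51 of 483 fits of these 7 genes, for values no larger than 0.15 on the log2 scale. The causes were not tested.

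The number of genes called moved more. It was 1173 in HBR2340 against N2, 1856 with DESeq2, 627 with only the 8 libraries compared, and 661 to 2880 when any 1 library was left out. It was 58 in PHX2193 against N2, 451 with DESeq2, 29 with pan-neuronal scaling, 37 with library size only (chosen after seeing the data), 3 with only the 8 libraries and 7 to 228 when 1 library was left out. It was 3106 between PHX2193 and HBR2340, 5316 with only the 8 libraries and 2237 to 5339 when 1 library was left out. In each comparison the highest count among those with 1 library left out came without N2 B. Counts fell by over 1.5 times without N2 A or HBR2340 B, C or D (774, 707, 661 and 671) in HBR2340 against N2. In PHX2193 against N2 they did so without N2 C or D (9 and 37), each HBR2340 library (23 to 38) and PHX2193 B, C or D (10, 7 and 8). Pan-neuronal scaling moved the split of calls to 326 higher and 754 lower (HBR2340 against N2) and to 2005 higher and 884 lower (PHX2193 against HBR2340), and library size only gave 1767 and 961 in the latter. The median of all genes shifted to −0.18 (HBR2340 against N2) and 0.20 (PHX2193 against HBR2340) under pan-neuronal scaling and to 0.15 (PHX2193 against HBR2340) and 0.12 (PHX2193 against N2) under library size only. The replicate letters did not pair the libraries in general. Deviations were correlated over 0.1 in 3 of 12 same-letter pairs and 10 of 36 other pairs, and 6 of 24 best matches shared a letter. The pair N2 D and PHX2193 D was an exception at r = 0.661, where the highest other-letter pair had 0.372. With the letters as a replicate block 1053, 24 and 3063 genes were called.

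In HBR2340 against N2 the sign of lim-6 turned with DESeq2 size factors (−0.0076), upper quartile (−0.025), pan-neuronal scaling (−0.15), no filter (−0.019), 10 counts in 4 libraries (−0.015), DESeq2 (−0.020), limma-voom (−0.029), the 8 libraries (−0.014) and library size only (−0.039). The sign of unc-25 turned with size factors (−0.0059), pan-neuronal scaling (−0.090), no filter (−0.0037), 10 counts in 4 libraries (−0.00059) and DESeq2 (−0.0057). Pan-neuronal scaling turned unc-47 (−0.078) and snf-11 (−0.13), and library size only turned snf-11 (−0.0080). In PHX2193 against N2 unc-30 turned with size factors (−0.019), no filter (−0.0032) and DESeq2 (−0.018), and unc-25 with library size only (0.0024). Between PHX2193 and HBR2340 unc-30 turned with pan-neuronal scaling (0.066) and library size only (0.0072). When 1 library was left out, values in HBR2340 against N2 ran from −0.011 to 0.43 for aptf-1, −0.14 to 0.11 for lim-6, −0.10 to 0.16 for unc-25, −0.11 to 0.14 for unc-47, −0.014 to 0.23 for unc-30 and −0.12 to 0.13 for snf-11. In PHX2193 against N2 they ran from −0.35 to 0.077 for aptf-1, −0.012 to 0.23 for lim-6, −0.10 to 0.11 for unc-30 and −0.027 to 0.22 for snf-11. Between both strains they ran from −0.16 to 0.018 for unc-30 and −0.015 to 0.19 for snf-11. At 1.87 to 6.44 CPM, aptf-1 and lim-6 have the fewest counts. The 47% of simulated 2-fold changes that were called is a share over genes of many levels with a common spread. It is not specific to aptf-1 and lim-6.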

Other observations

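Of 13 genes of other transmitters, edgeR called 1 in HBR2340 against N2, where 7.37% of all tested genes were called. It called none in PHX2193 against N2, where 0.365% were called. The tyrosine decarboxylase gene tdc-1, needed for tyramine and octopamine, was lower in HBR2340 (9.21 ± 0.556 CPM, SD, n = 4) than in N2 (15 ± 2.44 CPM; log2 fold change −0.70 ± 0.13, edgeR adjusted p = 0.00687) and than in PHX2193 (15.9 ± 1.68 CPM; 0.79 ± 0.13 in PHX2193 against HBR2340, edgeR adjusted p = 0.00121). The serotonin transporter gene mod-5 was higher in PHX2193 than in HBR2340 (0.61 ± 0.14, edgeR adjusted p = 0.00919). With tdc-1 this made 2 of the 13 genes higher there, where 10.1% of all tested genes were higher. The vesicle gene rab-3 was the one of 15 pan-neuronal genes called with all libraries, lower in PHX2193 than in HBR2340 (−0.43 ± 0.11, edgeR adjusted p = 0.0151). Of all tested genes 9.39% were lower in that comparison. Of 13 other genes linked to sleep or RIS, 11 were tested and nlp-42 and nlp-22 were not analysed here. The EGF receptor gene let-23, which acts in the sleep neuron ALA, was higher in PHX2193 than in HBR2340 (0.32 ± 0.10, edgeR adjusted p = 0.0488), a call that ended without any 1 of 10 of the 12 libraries. It was the 1 of these 11 called there by edgeR, where 10.1% of all tested genes were higher. Of 5 intestine, 5 epidermis, 5 pharynx and 7 germ line, yolk and embryo markers, 1 of each list was lower in HBR2340 than in N2 by edgeR and none was called in PHX2193 against N2, where 0, 0, 0 and 1 had an unadjusted p under 0.05, DESeq2 called 0, 0, 0 and 1 and limma-voom none. These HBR2340 calls ended without any 1 of 3 (elt-2), 5 (rol-6), 8 (ceh-22) or 11 (vit-6) of the 12 libraries, and limma-voom did not call an epidermis or a germ line, yolk and embryo marker there. Of all tested genes 4.03% were lower in HBR2340 than in N2. With all libraries edgeR called elt-2, rol-6, ceh-22 and vit-6 higher in PHX2193 than in HBR2340, and skn-1 lower. Of all tested genes 10.1% were higher and 9.39% lower there. Only the skn-1 call ended when 1 library was left out, for any 1 of 6 of the 12. The vit-6 log2 fold change there was then 3.51 to 3.88. Without N2 B the yolk gene vit-6 was higher in PHX2193 than in N2 (1.30 ± 0.24, edgeR adjusted p = 0.0210), and the pharynx genes myo-1, myo-2 and pha-4 were higher in HBR2340 than in N2 (0.63 ± 0.18, 0.87 ± 0.22 and 0.50 ± 0.10, edgeR adjusted p = 0.0265, 0.0175 and 0.00612). Calls gained without N2 B in the lists of this paragraph were also let-23, bas-1 and ges-1 (lower) in HBR2340 against N2. Between PHX2193 and HBR2340 they were flp-13, lin-3, tph-1, tbh-1, ges-1, nhr-23 and vit-2 (higher) or snt-1, myo-1, myo-2 and pha-4 (lower). Without N2 B edgeR called 17.7% of all tested genes in HBR2340 against N2. It called 1.4% in PHX2193 against N2 and 32.9% between PHX2193 and HBR2340.

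Among 11847 genes compared over the 12 libraries, which share their strain and N2 B, those whose log2 CPM ran most like that of flp-11 were the saposin-like gene spp-24 (Pearson r = 0.945), the chemoreceptor-like gene srw-85 (0.925), the lysozyme gene lys-1 (0.916), cyp-13A2 (0.894) and the insulin-like gene ins-24 (0.893). Of these, srw-85 was lower in PHX2193 than in N2 by a log2 fold change of −5.17 ± 0.26 (edgeR adjusted p = 1.02e-06). Also lower there were spp-24, lys-1 and ins-24 (edgeR adjusted p = 0.0254, 0.00281 and 0.0353), while cyp-13A2 did not pass (0.126). None of these genes passed in HBR2340 against N2 (edgeR adjusted p of 0.186 to 0.880), where srw-85 was at 0.24 ± 0.21. For unc-25 the most alike genes were unc-14 (r = 0.976), ncx-4, ifet-1, cdka-1 and lntl-1 (0.968 to 0.961). For aptf-1, low in N2 B, they were Y39A1A.21 (0.959), dyf-17, Y54E2A.10, E_BE45912.2 and lgc-54 (0.953 to 0.930).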
